A study of Mus musculus with 4 samples.

Results

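Cells chosen as conventional dendritic cells type 1 (cDC1) through Xcr1 or Clec9a made up 123 of 15476 CD45+ cells of the mouse dura mater and brain that passed the filters, from 18969 barcodes. Of the 123, 106 held at least 7 of 12 cDC1 markers outside the rule, and the name went against the data for the other 17. The members were chosen cell by cell on measured values. A cell had to show more than 1000 genes, with no more than 7% of its UMIs from mitochondrial genes, and to have a UMI of Xcr1 or Clec9a, H2-Ab1 at 3 or more and Irf8 at 1 or more on the natural log scale of the files, C1qa below 1.5 on that scale, and no UMI of Ccr7, Cd79a or Cd3e. CD45+ leukocytes of 8-week-old C57BL/6J mice were sorted on day 3 after photothrombotic injury (D3) or after the control operation, here called S3 because the labels' CT was taken as the sham group of the study, and were run on the 10X Chromium 3' v3 system with 1 library for each tissue and operation. Photothrombotic injury is made by light shone on the head after a photosensitive dye is given, so that vessels of dura mater, pia mater and brain close together. The number of mice behind each library is not given in the sources used here. The 4 libraries gave 20 cDC1 in brain S3, 33 in brain D3, 34 in dura mater S3 and 36 in dura mater D3. Levels are unique molecular identifiers (UMIs, counted molecules) of a gene summed over the cells of a library for each 1000000 UMIs (CPM). Since each condition is a single library, differences between conditions carry no test, the variation from mouse to mouse is not known, and intervals cover counting error only.

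cDC1 are the dendritic cell lineage that depends on the transcription factors IRF8 and BATF3 and on ID2. They take up dead cells, for which CLEC9A binds exposed actin filaments, and present the antigens taken up on MHC class I to CD8 T cells, a route called cross-presentation. XCR1 is the receptor for the chemokine XCL1, which NK and CD8 T cells release. The other conventional lineage, cDC2, is marked in mouse by genes such as Cd209a, Sirpa, Mgl2 and Clec10a and presents chiefly on MHC class II. In the central nervous system, conventional dendritic cells are found mostly in the meninges and the choroid plexus.

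The members held 2911671 UMIs, with a median of 19979.5 UMIs per cell in brain S3, 19401 in brain D3, 24798 in dura mater S3 and 25308.5 in dura mater D3. Of any pair of libraries, 3 to 11 barcodes were the same, and none of these was a cDC1. RNA of other cells was present in a few members. In 4 cells of dura mater S3 and 1 of brain D3, neutrophil genes (12 genes, among them S100a8 and S100a9) made over 1% of the UMIs, up to 15.2%, and mast cell genes made 3.37% in 1 cell of dura mater S3. Summed over the members, the neutrophil share was 1.32% in dura mater S3, 0.341% in brain D3, 0.0176% in brain S3 and 0.0391% in dura mater D3. It was 0.0433% in dura mater S3 and 0.032% in brain D3 without those cells. Macrophage and microglia genes made 2.46% of the UMIs of 1 cell of brain D3, which is also the cell with neutrophil RNA. Below, some values that rest on such cells are given as resting on them, but the counts of genes past 2-fold include such genes. The 9 neutrophil and 4 mast cell genes compared were all at least 2-fold higher in dura mater S3 than in brain S3. The same genes were all at least 2-fold lower in dura mater D3 than in dura mater S3. The 4 neutrophil genes compared in brain were all at least 2-fold higher at D3.

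The rule's own genes describe the selection and carry no test. Xcr1 was at 173 CPM in brain S3, 182 in brain D3, 227 in dura mater S3 and 306 in dura mater D3. Clec9a was at 187 CPM in brain S3, 119 in brain D3, 162 in dura mater S3 and 193 in dura mater D3. Both genes were detected in 86 members, Clec9a alone in 31 and Xcr1 alone in 6. Irf8 was at 1435 CPM in brain S3, 1697 in brain D3, 1352 in dura mater S3 and 1462 in dura mater D3, against 61.2 to 92.7 CPM in cDC2. The last cells taken in had H2-Ab1 at 3.08 and Irf8 at 1.0003 on the natural log scale, and the first left out had 2.99 and 0.99. As a measure of free RNA, 1 of 871 T cells (0.115%) and 3 of 961 B cells (0.312%) held a UMI of Xcr1 or Clec9a. These T and B cells were chosen without a UMI of C1qa, so those with macrophage RNA of that gene are outside this measure. T and B cells were shallower than cDC1, with medians of 6672.5 and 5096 UMIs.

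The 250 bases before the transcription start of Xcr1, Clec9a and 2 further genes of the lineage are shown because each holds a motif of the IRF and BATF factors named above. They are the 4 with an AICE or ISRE motif, described next, among the 16 lineage genes for which a window was found. The AICE motif, at which BATF and IRF proteins bind together, was searched as TTTCNNNNTGA and the interferon-stimulated response element (ISRE), an IRF site, as GAAANNGAAA, on both strands. The sequences are from RefSeq on GRCm38.p6, run 5′ to 3′ towards the gene, and carry the motif in capitals. They lie at chr9:123862030-123862279, - strand (Xcr1), chr6:129408612-129408861, + strand (Clec9a), chr16:45610190-45610439, + strand (Gcsam, a signalling adaptor of germinal centre B cells) and chr1:174031756-174032005, - strand (Ifi205, a member of the interferon-inducible p200 family). The first 3 hold the AICE letters and Ifi205 those of the ISRE. Each stretch ends at the base before the first base of the transcript.
Xcr1: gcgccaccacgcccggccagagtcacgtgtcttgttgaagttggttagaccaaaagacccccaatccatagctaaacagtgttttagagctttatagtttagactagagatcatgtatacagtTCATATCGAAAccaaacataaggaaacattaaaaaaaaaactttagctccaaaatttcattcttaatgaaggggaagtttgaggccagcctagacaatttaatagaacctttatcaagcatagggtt
Clec9a: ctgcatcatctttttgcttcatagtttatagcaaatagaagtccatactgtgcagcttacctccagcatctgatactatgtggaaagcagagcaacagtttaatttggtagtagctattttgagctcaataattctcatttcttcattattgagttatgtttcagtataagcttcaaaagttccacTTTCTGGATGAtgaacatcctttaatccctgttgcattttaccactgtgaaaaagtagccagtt
Gcsam: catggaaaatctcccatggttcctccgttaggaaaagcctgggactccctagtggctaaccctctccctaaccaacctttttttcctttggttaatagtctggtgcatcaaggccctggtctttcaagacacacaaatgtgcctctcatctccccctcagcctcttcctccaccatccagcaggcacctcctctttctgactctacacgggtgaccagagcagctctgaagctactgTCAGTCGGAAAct
Ifi205: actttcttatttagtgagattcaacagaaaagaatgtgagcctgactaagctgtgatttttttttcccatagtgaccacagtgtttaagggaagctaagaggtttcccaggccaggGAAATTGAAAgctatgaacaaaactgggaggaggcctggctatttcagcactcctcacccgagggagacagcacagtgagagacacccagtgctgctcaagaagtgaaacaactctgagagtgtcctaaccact

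Over windows from 250 bases before to 50 after the start, AICE letters were found in 5.35% of the 243 matched genes higher in cDC1 than in cDC2, in 4.44% of the 360 matched genes higher in cDC2, in 3.64% of 6052 fitted genes and in 5.27% of all 27025 genes with a window. ISRE letters were in 17, 28, 260 and 1079 genes of the same sets, or 7.78%, 4.30% and 3.99% for the last 3. The AP-1 letters TGANTCA, whose first 3 are also the last 3 of the AICE letters, were in 4.94%, 10.8%, 6.05% and 8.97%. P2ry14, looked up with the genes shown above, held AP-1 letters and neither of the other motifs, and is not shown. Of 12 further cDC1 markers, 8 had a window, and 1 of these held AICE letters, 1 ISRE letters and 0 AP-1 letters. These are matches of letters and not shown to be bound sites.

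To check the name against genes that the rule did not use, 12 other cDC1 markers were counted in each cell: Batf3, Wdfy4, Cadm1, Itgae, Tlr3, Naaa, Ifi205, Snx22, Gcsam, Cd24a, Ppt1 and Rab7b. This list was chosen with earlier results of these data known, so the check is not blind to them. The members held a median of 11 of them and 27 held all 12, while the 525 cDC2 held a median of 3 and none held all 12. At least 7 markers were found in 106 members (16 of brain S3, 29 of brain D3, 27 of dura mater S3 and 34 of dura mater D3) and in 10 cDC2. The cut of 7 was chosen after seeing the data, and 4 members fell short of the planned cut of 3 markers. By the cut of 7, the label cDC1 held for 106 of the 123 members and went against the data for the other 17. All 17 had been taken in through Clec9a, 1 of them also with Xcr1, and 11 held a single UMI of the 2 genes together.

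The 17 members with few markers carried genes of other dendritic cells. Siglech, a receptor of plasmacytoid dendritic cells, was at 749 CPM in them and at 4.23 CPM in the 106, and Cox6a2, another plasmacytoid gene, was at 355 and 0.384 CPM. Cd209a was at 795 against 10.4 CPM. In 6 of the 17 there were at least 10 UMIs of Siglech and Ccr9 together, a further 10 had at least 3 UMIs of Cd209a, and 1 had neither. Cst3, the secreted protease inhibitor cystatin C, was at 4917 CPM against 23698. Wdfy4, needed for cross-presentation, was at 64.6 against 595 CPM. Wdfy4 is among the markers counted to split the members, so the split itself favours a lower level in the 17. Its difference is therefore not separate evidence on these cells.

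**Figure D1:**
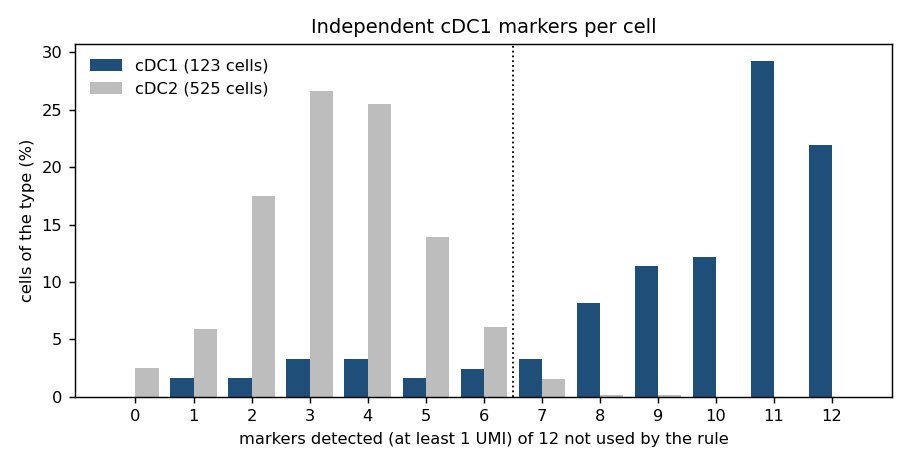
Share of cells (vertical axis, % of the cell type) with each number of the 12 cDC1 markers that the rule did not use (horizontal axis, markers with at least 1 UMI), for 123 cDC1 and 525 cDC2. Most cDC1 lie at 8 to 12 markers and most cDC2 at 1 to 6; the dotted line parts 6 from 7 markers, with 17 cDC1 to its left.

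cDC1 were a small part of the CD45+ cells in all 4 libraries, and the order of the libraries in their share turned with the limit on C1qa. The share was 0.521% in brain S3 (20 of 3842 cells, exact Clopper-Pearson 95% interval 0.318% to 0.803%), 0.647% in brain D3 (33 of 5103, 0.446% to 0.907%), 0.927% in dura mater S3 (34 of 3669, 0.643% to 1.29%) and 1.26% in dura mater D3 (36 of 2862, 0.883% to 1.74%). The intervals of the S3 and D3 libraries overlapped within each tissue. With C1qa at 0 the shares were 0.390%, 0.333%, 0.627% and 0.594% in the same order, so that brain D3 was then lowest and dura mater S3 highest. Among cDC1 and cDC2 together, cDC1 made 15.5% in brain S3 (9.73% to 22.9%), 15% in brain D3 (10.6% to 20.4%), 19.0% in dura mater S3 (13.5% to 25.5%) and 30% in dura mater D3 (22.0% to 39.0%). In this second share dura mater D3 lay above the interval of brain D3. The limit on C1qa left 84 of 175 cDC2 candidates in dura mater D3 and 145 of 181 in dura mater S3. Counting only members with at least 7 of the 12 markers gave 0.416%, 0.568%, 0.736% and 1.19% of CD45+ cells and 12.8%, 13.4%, 15.7% and 28.8% of the dendritic cells, in the order brain S3, brain D3, dura mater S3, dura mater D3. With every cell thinned to 2000 UMIs before both rules were applied, cDC1 made 6.92%, 10.1%, 10.6% and 19.6% of the dendritic cells. A share among sorted cells also moves with every other cell type in the library.

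**Figure D2:**
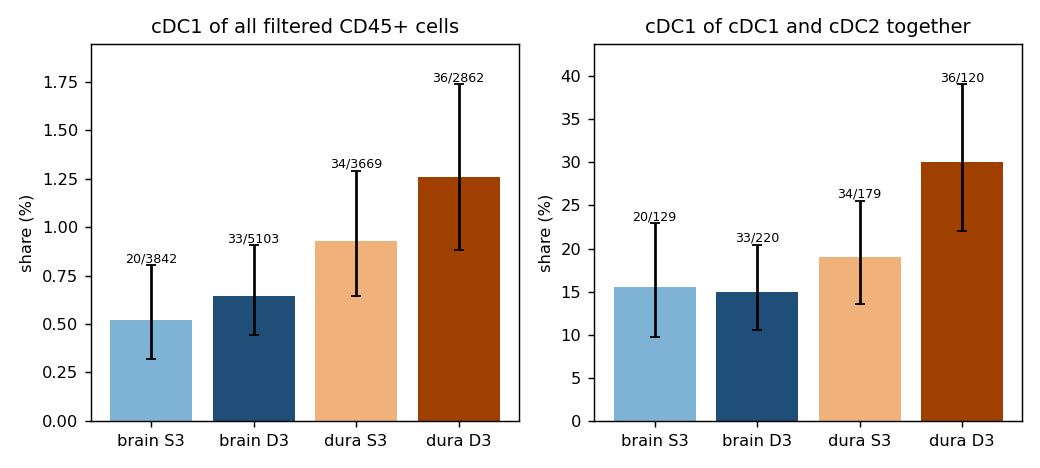
cDC1 as % of all filtered CD45+ cells (left) and as % of cDC1 and cDC2 together (right) in the 4 libraries; bars are shares, error bars exact binomial 95% intervals for counting error, and the labels give cells of cells. Dura mater D3 is highest in both panels, at 1.26% and 30%, but with C1qa at 0 the first share is 0.594% there and 0.627% in dura mater S3.

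The limit on C1qa, a complement gene of macrophages, removed nearly as many candidates as the rule kept. It was the only reason for the loss of 98 of 221 candidates (44.3%, exact 95% interval 37.7% to 51.2%), namely 18 of 38 in brain S3, 33 of 66 in brain D3, 16 of 50 in dura mater S3 and 31 of 67 in dura mater D3. Among candidates with at least 7 of the 12 markers, 67 of 173 failed on C1qa alone. Those 67 cells had a median of 41623 UMIs against 23741 in the cells kept, and 30 of them had 6000 or more detected genes. They carried Xcr1 at 194 CPM and Cst3 at 13780.0 together with C1qa at 3094 and Apoe at 15440.3 CPM. The macrophage genes in them followed the tissue: P2ry12, a microglial receptor, was at 251 CPM in brain S3, 159 in brain D3, 22.5 in dura mater S3 and 24.4 in dura mater D3, whereas Mrc1, a receptor of border macrophages, was at 183, 135, 1134 and 789 CPM. The same limit removed 33.5% of cDC2 candidates (36 of 145 in brain S3, 102 of 289 in brain D3, 36 of 181 in dura mater S3 and 91 of 175 in dura mater D3), 16.4% of T cell candidates and 8.21% of B cell candidates. With no limit on C1qa for either cell type, cDC1 made 0.989%, 1.29%, 1.36% and 2.34% of CD45+ cells, and 20.8%, 18.6%, 21.6% and 27.7% of cDC1 and cDC2, in the order brain S3, brain D3, dura mater S3, dura mater D3. What these cells are was not tested.

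The question of which genes set cDC1 apart from cDC2 could be tested, since each library holds both cell types. UMIs were summed per library and cell type and compared over the 4 libraries with limma on voom values, with the library as a block and Benjamini-Hochberg adjustment over 7571 genes. The libraries are different tissues and operations, so the test asks whether a difference holds across them. cDC2 were chosen by a UMI of Cd209a with none of Xcr1 and Clec9a, with the same limits on H2-Ab1, C1qa, Ccr7, Cd79a and Cd3e and none on Irf8. The genes used by either rule were not tested. At an adjusted p under 0.05 and at least a 2-fold difference, 305 genes (4.03%) were higher in cDC1 and 472 (6.23%) were lower. With the 106 members that held at least 7 markers these counts were 335 and 607, and leaving out any library gave 283 to 349 higher and 360 to 455 lower.

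All 12 cDC1 markers that the rule did not use were higher in cDC1 than in cDC2, with a median log2 ratio of 4.08 beside 0.05 over all genes fitted. The 12 had been listed with earlier results of these data known. Gcsam was at 77.8 CPM in brain S3, 73.8 in brain D3, 61.7 in dura mater S3 and 88.0 in dura mater D3, while cDC2 had 0 to 0.385 CPM (log2 ratio 8.02 ± 0.64, limma adjusted p = 1.0e-05). Snx22, a sorting nexin, was at 40.0, 78.3, 41.5 and 62.9 CPM in the same order, against at most 1.48 CPM in cDC2 (log2 ratio 6.27 ± 0.70, limma adjusted p = 1.0e-04). Itgae, the integrin chain CD103, was at 91.1, 133, 135 and 136 CPM (log2 ratio 6.09 ± 0.62, limma adjusted p = 5.3e-05). For each of these 3 genes every cDC1 library lay above every cDC2 library. Gcsam and Snx22 were almost absent from cDC2, at 0.107 and 0.641 CPM over all its cells. The size of their ratios thus depends on the small count added before the log. Cadm1, an adhesion molecule, had a log2 ratio of 4.63 ± 0.27, and Tlr3, the endosomal receptor for double-stranded RNA, a log2 ratio of 4.88 ± 0.32. The smallest ratio of the 12 was that of Batf3 (log2 ratio 1.45 ± 0.15, limma adjusted p = 5.1e-05), at 132 to 189.7 CPM in cDC1 and 50.7 to 71.2 CPM in cDC2.

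Of 28 further genes associated with cDC1, 17 were fitted, of which 12 were higher, 0 were lower and 5 passed neither. Cst3 was at 20963, 18067, 23707 and 22807 CPM, and at 5949, 4716, 6395 and 5929 CPM in cDC2 (log2 ratio 1.90 ± 0.02, limma adjusted p = 2.3e-12). Btla, an inhibitory receptor, had a log2 ratio of 2.44 ± 0.16, Kit, the receptor of stem cell factor, a log2 ratio of 2.66 ± 0.25, and Cd36, a scavenger receptor, a log2 ratio of 3.45 ± 0.52. For all 3 genes, the lowest level of the 4 cDC1 libraries lay above the highest of the 4 cDC2 libraries. Flt3, the receptor of the growth factor on which dendritic cells depend, was higher by less than 2-fold (log2 ratio 0.93 ± 0.11, limma adjusted p = 1.2e-04).

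Of 20 cDC2 markers, 16 were fitted, of which 13 were lower in cDC1 and 0 were higher. Mgl2, a galactose-type lectin, was at 133, 9.03, 66.4 and 8.38 CPM in cDC1 and at 1056, 679, 1236 and 1242 CPM in cDC2 (log2 ratio -4.51 ± 0.48, limma adjusted p = 7.2e-05). In each cDC1 library at least 50% of the Mgl2 UMIs came from 1 cell. S100a4 had a log2 ratio of -3.54 ± 0.14, Clec10a a log2 ratio of -3.39 ± 0.39, Tmem176a a log2 ratio of -3.31 ± 0.20 and Itgam, the integrin chain CD11b, a log2 ratio of -2.94 ± 0.19. Migratory dendritic cell genes, from which Ccr7 was excluded by the rule, were lower for 7 of 9 fitted, among them the nuclear factor-kB member Relb (log2 ratio -1.03 ± 0.19) and the chemokine gene Ccl17 (log2 ratio -3.67 ± 0.62).

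Among 24 transcription factors of dendritic cells, 23 were fitted: 4 were higher in cDC1, 6 were lower and 13 passed neither. Id2, an inhibitor of E proteins that the cDC1 lineage needs, was at 1519.9 CPM in brain S3, 1060.0 in brain D3, 608 in dura mater S3 and 654 in dura mater D3, against 183 to 318 CPM in cDC2 (log2 ratio 1.96 ± 0.13, limma adjusted p = 3.1e-06). Zfp366 (DC-SCRIPT) had a log2 ratio of 1.90 ± 0.27 and Irf7 was higher as well. Zeb2, which represses Id2 in the lineage, was lower (log2 ratio -2.67 ± 0.19, limma adjusted p = 4.5e-06), as were Irf4, a factor of cDC2, Cebpb (log2 ratio -1.79 ± 0.16), Nfkb1 (log2 ratio -1.23 ± 0.11), Relb and Irf1. Spi1, Zbtb46, Bcl11a, Tcf4 and Cbfa2t3 did not pass, with log2 ratios of -0.20, 0.43, -0.07, -0.04 and 0.01.

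Of 27 fitted genes of MHC class I and cross-presentation, 8 were higher in cDC1, 1 was lower and 18 passed neither, beside 4.03% of all genes higher, with a median log2 ratio of 0.34. Psmb9 and Psmb8, catalytic subunits of the immunoproteasome, had log2 ratios of 1.83 ± 0.10 and 1.17 ± 0.06. Psme1, of the proteasome activator PA28, was at 759.9, 774, 763 and 683 CPM against 300.1, 304, 356 and 285 CPM in cDC2 (log2 ratio 1.25 ± 0.07, limma adjusted p = 1.6e-06). The peptide transporter genes Tap1 and Tap2 had log2 ratios of 1.21 ± 0.10 and 1.44 ± 0.12, and the TAP-binding protein-related gene Tapbpl 1.30 ± 0.19. Wdfy4 (log2 ratio 2.35 ± 0.12, limma adjusted p = 1.3e-06) and the small GTPase gene Rab43 (log2 ratio 1.03 ± 0.13), both of cross-presentation, were higher too.

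H2-K1, H2-D1 and the light chain gene B2m did not pass the 2-fold limit, with log2 ratios of -0.31, -0.27 and -0.23. Cybb, the catalytic subunit of the phagocyte oxidase, was the gene lower in cDC1 (log2 ratio -2.20 ± 0.21, limma adjusted p = 3.0e-05). Psmb9, Tap1, Psmb8 and Tap2 are neighbours on chromosome 17 within 34182030 to 34216321 of GRCm38.p6. Of 13 fitted genes of the MHC class II pathway, 0 were higher and 2 were lower, the protease gene Ctss (log2 ratio -1.19 ± 0.07) and H2-DMb2 (log2 ratio -1.39 ± 0.14). Cd74, the invariant chain, was at 19869 to 25209 CPM in cDC1 and 29645 to 33628 in cDC2, a log2 ratio of -0.52 that stayed under 2-fold. H2-Ob, a subunit of the modulator of peptide loading, went the other way at 0.88, also under 2-fold.

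Of 19 fitted cytokine and chemokine genes, 9 were lower in cDC1, 1 was higher and 9 passed neither, beside 6.23% lower and 4.03% higher over all genes fitted. Il1b was at 1062, 1120.2, 844 and 872 CPM in cDC1 and at 2698, 4840.2, 1852 and 3304 CPM in cDC2 (log2 ratio -1.69 ± 0.13, limma adjusted p = 8.9e-06). Tnf (log2 ratio -1.59 ± 0.22), Ccl9 (log2 ratio -2.84 ± 0.18), Ccl6 (log2 ratio -1.45 ± 0.14) and Ccl3 (log2 ratio -1.67 ± 0.30) were lower as well. Cxcl9, a ligand of CXCR3, was higher (log2 ratio 1.82 ± 0.46, limma adjusted p = 0.014), but it was found in 17 of the 123 members, and 1 cell gave 50% to 76.9% of its UMIs in each library. Il12b, a subunit of IL-12, had 20 UMIs in cDC1 and was not fitted.

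Of 16 fitted chemokine receptor and adhesion genes, 3 were higher (Cadm1, Itgae and Cxcr3) and 3 lower, Ccr1 and Cx3cr1 among them. Over all genes fitted 4.03% were higher and 6.23% lower. Cadm1 and Itgae, like Tlr3 and Cd24a below, are also among the 12 markers already given. Cxcr3, the receptor for Cxcl9 and Cxcl10, was at 75.5, 63.2, 75.9 and 111 CPM against 1.62 to 8.44 CPM in cDC2 (log2 ratio 4.35 ± 0.32, limma adjusted p = 6.6e-06). Of 12 fitted sensing genes Tlr3 was higher and Tlr2 lower (log2 ratio -2.23 ± 0.17), with 10 passing neither. Among 12 fitted genes for the uptake of dead cells, Cd36, Cd24a, the nuclease gene Dnase1l3 and Havcr2 (TIM-3, log2 ratio 1.56 ± 0.17) were higher and Axl, Lrp1, Itgb5, Fgr and Syk were lower. Of 14 co-stimulatory and inhibitory genes, Btla and Havcr2 were higher and Cd80, Icam1, Icosl, Pvr and Tnfsf9 lower, while Cd86 had a log2 ratio of 0.03.

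Of 20 fitted cell cycle genes, the replication genes Mcm2, Mcm3, Mcm6 and Tyms and the kinase gene Cdk1 were higher in cDC1 and 15 passed neither, Mki67 among them at -0.06 ± 0.30. Of 22 interferon-stimulated genes, 2 were higher, Irf7 among them, and 3 were lower (Ifi27l2a, Ifitm3 and Rtp4), beside 4.03% and 6.23% of all genes fitted. Of the hypoxia and glycolysis genes 0 of 14 were higher and 2 lower (Slc2a1 and Vegfa), of the growth factor receptor and survival genes 1 of 15 higher (Kit) and 3 lower (Bcl2a1b, Bcl2l11 and Csf1r), and of the dissociation stress genes 0 of 16 higher and 3 lower (Egr1, Ier3 and Nfkbia).

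Markers of other cells also passed the test in places. All 4 fitted mast cell genes were higher in cDC1 in all 4 libraries, and 1 cell of dura mater S3 held most of their UMIs. In cDC1 of the brain, Mcpt4 had 0 UMIs at D3 and was found in 1 cell at S3. At such counts a ratio follows the 0.5 UMIs added to each sum. That offset weighs more in the smaller cDC1 sums (664146 UMIs in brain D3, against 3078982 in cDC2). Of 10 fitted plasmacytoid genes 4 were higher (Siglech, Ccr9, Cd300c and Iglc3), with Siglech at 4.23 CPM in the 106 members that held at least 7 markers. Gzma was higher among 3 fitted genes of T, NK and ILC cells, and 1 cell gave 73.8% to 100% of its UMIs where it was found. Of the neutrophil genes 0 of 10 passed in either direction, of the macrophage and microglia genes 4 of 11 were lower (Adgre1, Apoe, Mrc1 and Ms4a7), of the monocyte genes 2 of 10 (Fn1 and Lyz2), and of the B cell genes 0 of 2 passed. The part of these cells' RNA in the other differences was not tested.

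The genes with the largest ratios, among those of the same sign in all 4 libraries and at 50 CPM or more in the higher type, were Gcsam, Snx22, Itgae, Tlr3, Cadm1, Cxcr3, Ifi205, Sept3, Rab7b, P2ry14, Agpat3, Cd36, Mycl, Ppt1 and Rtl8b on the cDC1 side. Their log2 ratios ran from 3.39 to 8.02. Rab7b, a small GTPase of late endosomes, was at 227 to 295 CPM against 15.8 to 19.6 (log2 ratio 3.86 ± 0.13, limma adjusted p = 7.2e-08), and Ppt1, a lysosomal thioesterase, at 549.6 to 785 against 45.4 to 76.0 (log2 ratio 3.40 ± 0.14, limma adjusted p = 2.0e-07). Mycl, a MYC family factor, was at 65.2 to 80.7 against 5.20 to 8.85 (log2 ratio 3.43 ± 0.23, limma adjusted p = 3.8e-06). On the cDC2 side stood Mt2, Tnip3, Mgl2, Ank, Ccl17, S100a4, Clec4n, Clec10a, Tmem176a, Mrc1, Tnfsf9, Dok2, Tmem176b, Itgam and Ear2, from -4.84 to -2.94. Tnip3, an inhibitor of nuclear factor-kB signalling, was at 3.01 to 42.2 CPM in cDC1 against 497 to 649 (log2 ratio -4.78 ± 0.33, limma adjusted p = 3.9e-06).

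**Figure D3:**
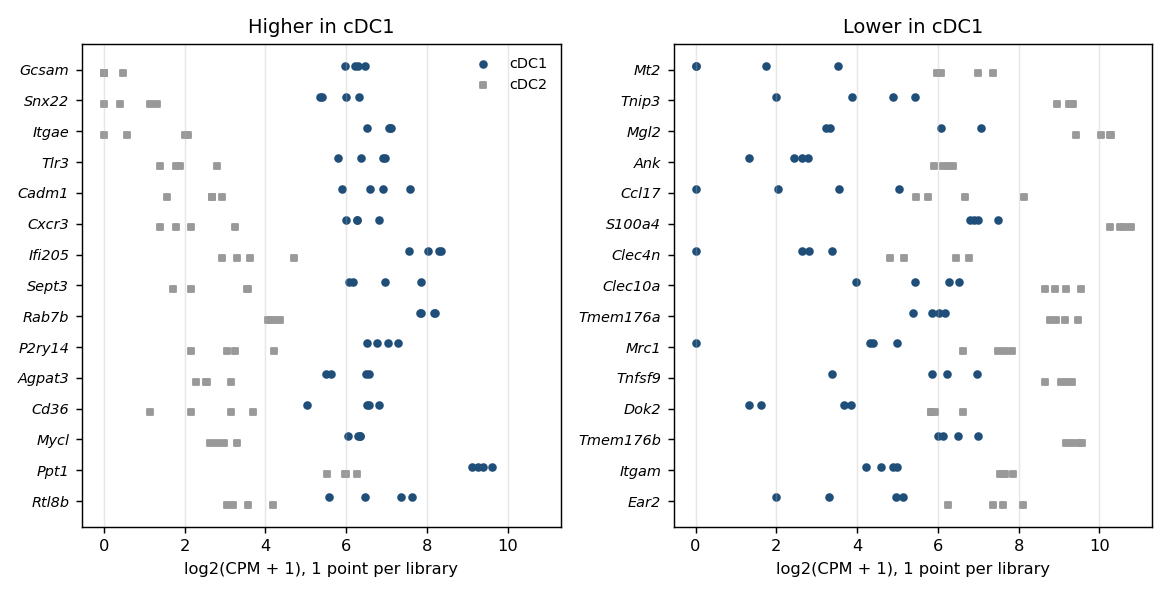
Levels (horizontal axis, log2 of CPM + 1) of the 15 genes highest (left) and the 15 lowest (right) in cDC1 by log2 ratio, 1 point per library, circles for cDC1 and squares for cDC2. In every row the 4 circles lie apart from the 4 squares, and the cDC1 points of Gcsam, between 61.7 and 88.0 CPM, lie far above those of cDC2, at most 0.385 CPM.

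In the cDC1 of the brain none of the 12 lineage markers differed by 2-fold between D3 and S3, whereas Ifitm1, Ifitm2 and Mt1 were at least 2-fold higher at D3. Of 4170 genes with at least 30 UMIs over both libraries, 172 (4.12%) were at least 2-fold higher in brain D3 than in brain S3 and 120 (2.88%) at least 2-fold lower, with a median log2 ratio of 0.07. Here as in all comparisons of 2 libraries no test was possible, and fewer cells with a gene and less RNA per cell cannot be told apart in the sums. The 12 markers had a median of -0.02, and 6 of them lay above 0. Of the 28 further genes associated with cDC1, 15 were compared, with a median of -0.22 and 11 below 0. In that list Gpr171 was at least 2-fold higher in brain D3, and Cd36 and Xlr were at least 2-fold lower. Medians were 0.02 over 24 genes of MHC class I and cross-presentation, 1 of which passed 2-fold (Erap1, log2 ratio -1.32, 95% interval -2.57 to -0.21), and 0.07 over 14 genes of MHC class II. Irf8, a gene of the rule, had a log2 ratio of 0.24.

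Among the genes that the rule names, the largest difference was that of Ifitm1, one of 3 neighbouring genes on chromosome 7 for interferon-induced membrane proteins that restrict virus entry. It was at 31.1 CPM in brain S3, 1471 in brain D3, 19.0 in dura mater S3 and 22.0 in dura mater D3, and the log2 ratio in brain was 5.51 (95% interval 4.81 to 6.44). In brain D3 it was found in 18 of 33 cells (lowest 0, median 74.5, highest 10485 CPM per cell), and 3 of 20, 5 of 34 and 12 of 36 cells of brain S3, dura mater S3 and dura mater D3 held it. Brain D3 was the one high library among the 4, and it was high in part of its cells. The cDC2 had 63.2, 1285, 18.5 and 287 CPM in brain S3, brain D3, dura mater S3 and dura mater D3, a log2 ratio in brain of 4.34. Ifitm2 had a log2 ratio of 2.89 (95% interval 2.57 to 3.24), from 182 to 1354 CPM, and Ifitm3 0.59 (95% interval 0.45 to 0.74). The 3 genes are close paralogs, so how reads were shared among them is uncertain.

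Other genes at least 2-fold higher in brain D3 that met the rule for named genes were Flot1, Hist3h2a, Mt1, Nfil3, P2rx4, Cfp, Acvrl1 and Plscr1. Flot1, a lipid raft protein, was at 13.3 CPM in brain S3 and 105 in brain D3 (log2 ratio 2.88, 95% interval 1.79 to 4.48). Mt1, a metal-binding metallothionein, was at 31.1 and 163 CPM (log2 ratio 2.34, 95% interval 1.58 to 3.30), while its log2 ratio in cDC2 was -0.34. Nfil3, a factor needed early in the cDC1 lineage, was at 26.7 and 84.3 CPM (log2 ratio 1.61, 95% interval 0.74 to 2.70), and was at 73.5 and 69.2 CPM in dura mater S3 and D3. For Nfil3 it was thus brain S3 that was low among the 4 libraries. Tmem173, the gene of the DNA-sensing adaptor STING, was at 44.4 CPM in brain S3, 104 in brain D3, 23.7 in dura mater S3 and 66.0 in dura mater D3, higher at D3 in both tissues. Gpr171, a G protein-coupled receptor of the list of cDC1 genes, was at 213, 456, 185 and 242 CPM in the same order, with log2 ratios of 1.09 in brain and 0.39 in dura mater.

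Lower in brain D3 were Rtl8b and Rtl8a, neighbouring X-linked genes derived from retrotransposons. Rtl8b was also 1 of the 15 named genes with the largest ratios of cDC1 over cDC2. Rtl8b was at 196 CPM in brain S3, 46.7 in brain D3, 162 in dura mater S3 and 88.0 in dura mater D3 (log2 ratio -2.05, 95% interval -2.71 to -1.46 in brain), and Rtl8a at 184, 45.2, 195 and 158 CPM. They are paralogs, so the split of reads between them is uncertain. Fam129a, Atf3, Ahnak, Hk2, Sema4a and Trf were among the further named genes, with log2 ratios from -1.46 to -1.01. Cd36 was at 111 CPM in brain S3, 31.6 in brain D3, 93.7 in dura mater S3 and 91.2 in dura mater D3 (log2 ratio -1.79, 95% interval -2.62 to -1.05 in brain), so that brain D3 stood apart from the other 3 libraries. Xlr, an X-linked lymphocyte-regulated gene, was at 91.1, 9.03, 98.4 and 35.6 CPM, low at D3 in both tissues (-3.24 in brain and -1.45 in dura mater). Irf1, an interferon-induced factor, was at 64.4, 18.1, 60.5 and 19.9 CPM, and Tnf at 75.5, 24.1, 58.1 and 19.9 CPM, both lower at D3 in either tissue. In brain S3, 1 cell gave 58.6% of the Irf1 UMIs and 91.2% of those of Tnf. Among the 106 members with at least 7 markers Irf1 was at 10.9 CPM in brain S3 and 13.5 in brain D3, and Tnf at 2.73 and 20.2 CPM, so that the direction turned in brain for both. In these members Atf3 (-0.87) and Sema4a (-0.74) were less than 2-fold lower in brain D3.

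Several list medians in brain rested on 1 cell. The interferon-stimulated genes had a median log2 ratio of -0.58 over 16 genes, 6 of which were at least 2-fold lower in brain D3. A single cell of brain S3 held 96.2% of that library's UMIs of Rsad2, an antiviral enzyme, 80.3% of those of Ifit3 came from 1 cell, and Cxcl10 was found in 1 of the 20 cells. Without the cell with the most Rsad2 the median was 0.11 over 11 genes and 0 of them passed 2-fold, an alternative chosen after seeing the data. In cDC2 the median of the list was 0.74 in brain. The macrophage and microglia markers had a median of 2.55 over 9 genes, 8 of them higher in brain D3, and 1 cell gave 80.7% of Apoe and 85.7% of Arg1. Lgmn, a lysosomal protease, was at 35.6, 303, 26.1 and 59.7 CPM, with 62.7% of its brain D3 UMIs from 1 cell. Without the members with neutrophil or mast cell RNA, Lgmn in brain D3 was at 122 CPM and Apoe at 348 CPM.

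The 16 genes induced by the stress of tissue dissociation had a median log2 ratio of -0.57 in brain, 14 of them lower at D3 and 2 past 2-fold, and of -0.25 in dura mater, 14 of them lower and 2 past 2-fold, with Ier3 2-fold higher. Hspa1a, an inducible chaperone, was at 1811 CPM in brain S3, 1122 in brain D3, 585 in dura mater S3 and 137 in dura mater D3, and Hspa1b at 907, 429, 195 and 60.8 CPM. The genes are near-identical copies, so their split is uncertain. Both brain libraries were higher for both than both dura mater libraries, and S3 was higher than D3 in each tissue. In cDC2 the same order held for Hspa1a, at 1170.2, 904, 646 and 324 CPM. The part of tissue handling in other differences between the libraries was not tested.

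In the dura mater, 140 of 5619 genes (2.49%) were at least 2-fold higher at D3 than at S3 and 136 (2.42%) at least 2-fold lower, with a median log2 ratio of 0.05. The 12 cDC1 markers had a median of 0.28, 9 of them above 0 and 0 past 2-fold. The medians were 0.04 for 25 genes of MHC class I and cross-presentation, -0.12 for 14 genes of MHC class II, with Cybb of the first list lower and Lgmn of the second higher by over 2-fold, and 0.02 for 23 transcription factors, of which 1 was past 2-fold (Irf1). Mt1 was at 87.8 CPM in dura mater S3 and 310.2 in dura mater D3 (log2 ratio 1.81, 95% interval 1.45 to 2.21), so that Mt1 was higher at D3 in both tissues, while its log2 ratio in cDC2 of the dura mater was -0.03. Casp6, an executioner caspase, was at 38.0 and 114 CPM (log2 ratio 1.57, 95% interval 1.01 to 2.21), and Htr7, a serotonin receptor, at 15.4 and 52.4 CPM (log2 ratio 1.72, 95% interval 0.86 to 2.77). AC163018.1, Acss1, Plscr1, Map3k14, Gpr35, Zdhhc23 and Rinl were also higher, with log2 ratios from 1.19 to 1.44.

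Ccl4, an inflammatory chemokine, was lower in dura mater D3. It was at 1184 CPM in brain S3, 1301 in brain D3, 1216 in dura mater S3 and 389.8 in dura mater D3 (log2 ratio -1.64, 95% interval -1.82 to -1.47 in dura mater), and the cells of dura mater D3 ranged as lowest 0, median 182, highest 1816 CPM, against lowest 0, median 830.5, highest 4706 CPM in dura mater S3. Dura mater D3 was low among the 4 libraries. The log2 ratio in cDC2 was -0.56. Egr3 (-1.12), Asph (-1.06) and Xlr were the other named genes lower in dura mater D3. Over 13 cytokine and chemokine genes the median was -0.52, with 4 at least 2-fold lower (Tnf, Cxcl9, Ccl4 and Ccl9) and 2 higher (Cxcl2 and Ccl3), and 1 cell gave 82.8% of the Cxcl2 UMIs of dura mater D3. The interferon-stimulated genes had a median of -0.48 over 16 genes, 14 of them below 0 and 3 at least 2-fold lower (Isg15, Oasl2 and Ifi27l2a), and in cDC2 of the dura mater the median was -1.05.

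Cell cycle genes were higher in the cDC1 of dura mater D3. Of 20 genes, 10 were at least 2-fold higher than in dura mater S3 and 0 lower, with a median log2 ratio of 0.91. Mki67, a marker of dividing cells, was at 64.4 CPM in brain S3, 49.7 in brain D3, 23.7 in dura mater S3 and 171 in dura mater D3, and Top2a, a topoisomerase of dividing cells, at 86.7, 63.2, 11.9 and 179 CPM. A few cells carried this. At least 10 UMIs of Mki67 and Top2a together were found in 6 of 36 cells of dura mater D3, 0 of 34 of dura mater S3 (which allows a share of up to 8.82%, taken as 3 counts of the total, and 10.3% as the exact Clopper-Pearson 95% limit), 2 of 33 of brain D3 and 2 of 20 of brain S3. At least 1 UMI of either gene was found in 30% of brain S3, 30.3% of brain D3, 29.4% of dura mater S3 and 33.3% of dura mater D3 cells, so the 4 shares lay within 29.4% to 33.3%. In the cDC2 of the dura mater the median of the cell cycle genes was -0.21, and without cDC1 that held a UMI of Mki67 or Top2a the cDC1 median was -0.81.

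**Figure D4:**
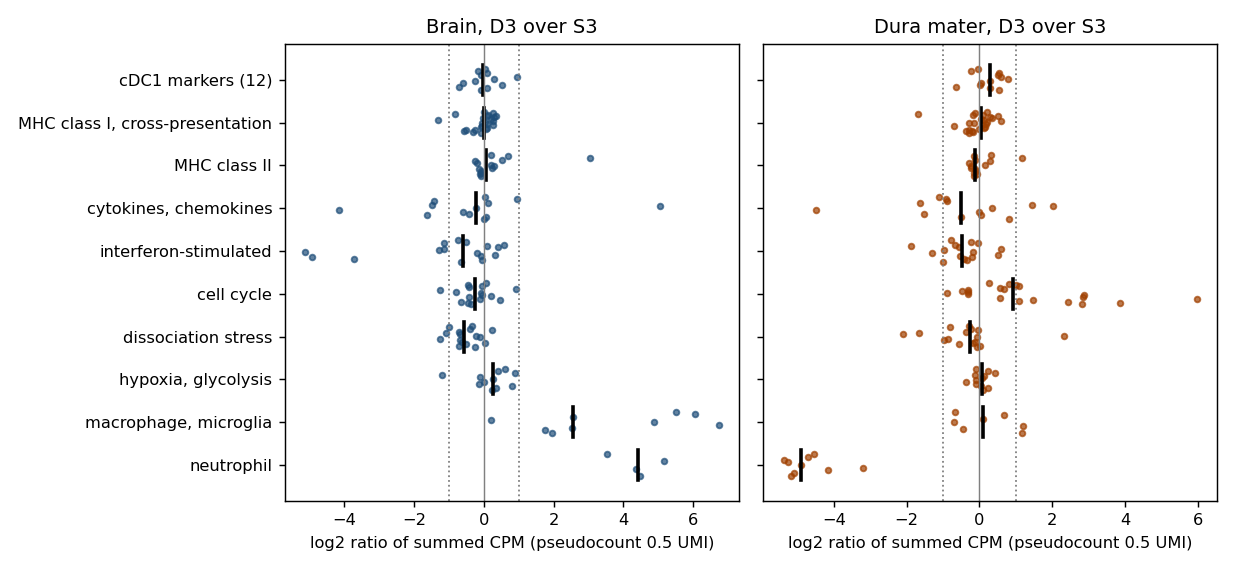
log2 ratio of D3 over S3 (horizontal axis, CPM of summed cDC1 with a pseudocount of 0.5 UMIs) for genes of 10 lists with at least 30 UMIs, 1 point per gene and a bar at the median, in brain (left) and dura mater (right); dotted lines mark 2-fold. cDC1 markers and both MHC lists lie around 0, cell cycle genes lie to the right in dura mater only, and the neutrophil list in both panels and the macrophage list in brain lie far out and rest on few cells.

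Among 4118 genes with at least 30 UMIs in both comparisons, 157 were at least 2-fold higher at D3 in brain and 67 in dura mater, and 14 were so in both, 8.92% of the first set and 20.9% of the second. Another 15 of the 157 were at least 2-fold lower in dura mater. Of 113 genes lower in brain and 73 lower in dura mater, 15 were shared (13.3% and 20.5%). Another 6 of the 113 were at least 2-fold higher in dura mater. Over all genes compared in each tissue, 4.12% were higher and 2.88% lower in brain, and 2.49% and 2.42% in dura mater. Mt1, Plscr1, Casp6, Map3k14, Il4ra and Tmem173 stood among those higher in both, and Xlr, Irf1, Tnf, Tnfaip3, Nfkbiz and Hspa1b among those lower in both. Among the 106 members with at least 7 markers the log2 ratios in brain were -3.37 for Xlr, but 0.22 for Irf1, 2.36 for Tnf, -0.93 for Tnfaip3, -0.09 for Nfkbiz and -0.82 for Hspa1b. These overlaps have no test.

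Between tissues, 243 of 4644 genes (5.23%) were at least 2-fold higher in dura mater S3 than in brain S3 and 117 (2.52%) at least 2-fold lower. At D3, in a comparison added after seeing the data, 287 of 5325 (5.39%) were higher in dura mater and 189 (3.55%) lower. Id2 was higher in brain at S3 (log2 ratio -1.32, 95% interval -1.49 to -1.15 for dura mater over brain), and per cell it ranged as lowest 0, median 1222, highest 3764 CPM in brain S3 and as lowest 0, median 266, highest 2576 CPM in dura mater S3. At D3 the log2 ratio was -0.70. Brain S3 was highest and dura mater S3 lowest in summed Id2, and the ranges of their cells overlapped. Id2 in cDC2 had a log2 ratio of -0.48 at S3. Mef2c, Plac8, Fdps, Ifi211 and Tgs1 were the other named genes higher in brain S3, and Plac8, of the monocyte list, was at 735 CPM in brain S3, 1083 in brain D3, 331 in dura mater S3 and 284 in dura mater D3, higher in brain than in dura mater at S3 and at D3. Among the 106 members with at least 7 markers Plac8 was at 143 CPM in dura mater S3, with a log2 ratio of -2.29 at S3 against -1.15 over all members, and Ifi211 and Tgs1 had -0.85 and -0.84.

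Nr4a3, an activity-induced nuclear receptor, was higher in dura mater. It was at 53.3 CPM in brain S3, 85.8 in brain D3, 301 in dura mater S3 and 299.7 in dura mater D3, with log2 ratios of 2.47 (95% interval 1.89 to 3.17) at S3 and 1.79 (95% interval 1.39 to 2.24) at D3. It was found in 9 of 20, 19 of 33, 29 of 34 and 34 of 36 cells in the order of the levels. In cDC2 the ratios were 0.67 and 0.56. Lrrk2, a kinase gene of Parkinson disease, was at 40.0, 18.1, 110.3 and 94.3 CPM, and Pik3cb, a catalytic subunit of phosphoinositide 3-kinase, at 26.7, 31.6, 72.3 and 103 CPM, both higher in dura mater at S3 and at D3. Fosl2, Nudt9, Litaf, Prkar2a, Nr4a2, Plk3 and Bcl2a1a, one of several near-identical copies whose counts are uncertain, were higher in dura mater S3, and Pianp, Cd81, A530099J19Rik, Gpcpd1, Rtl8a, Sept3 and Acss1 in dura mater D3. Sept3, a septin listed with cDC1, was at 71.1, 66.3, 123 and 231 CPM. Higher in brain D3 were Ifitm1, Ifitm3, Plac8, Ccl4, Flot1, Ric8a, Cars, Wfdc17, Csnk1e and Acadl, from -6.03 to -1.22.

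Of the genes at least 2-fold apart between tissues, 33 were higher in dura mater at both S3 and D3 (15.9% of 208 and 16.4% of 201 among 4494 genes counted in both) and 24 were higher in brain at both (23.8% of 101 and 18.3% of 131). Of the 208 and the 101, 15 and 8 were at least 2-fold the other way at D3. Over all genes compared, 5.23% were higher in dura mater and 2.52% in brain at S3, and 5.39% and 3.55% at D3. Dnase1l3, a nuclease for DNA in microparticles, was at 8.89 CPM in brain S3, 4.52 in brain D3, 39.1 in dura mater S3 and 58.7 in dura mater D3, higher in dura mater in both, with 1 cell giving 60.7% of its UMIs in dura mater D3. The 12 cDC1 markers had medians of 0.25 at S3 and 0.29 at D3. None of them passed 2-fold at S3, and Cadm1 (1.03) and Tlr3 (1.18) did so at D3, both higher in dura mater. Medians of MHC class I and cross-presentation genes were 0.07 and 0.05, and those of MHC class II genes 0.21 and 0.06. Interferon-stimulated genes had a median of -0.82 at S3, with 8 of 19 at least 2-fold higher in brain and 1 in dura mater (Ifi27l2a), and of -0.43 without the brain S3 cell with the most Rsad2, with 1 of 16 higher in brain. At D3 their median was -0.70, with 4 of 14 at least 2-fold higher in brain (Isg15, Isg20, Irf7 and Ifitm3) and 1 in dura mater (Ifit3), and 1 cell gave 63.8% of the Isg15 UMIs of brain D3 and 71.2% of those of dura mater D3.

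**Figure D5:**
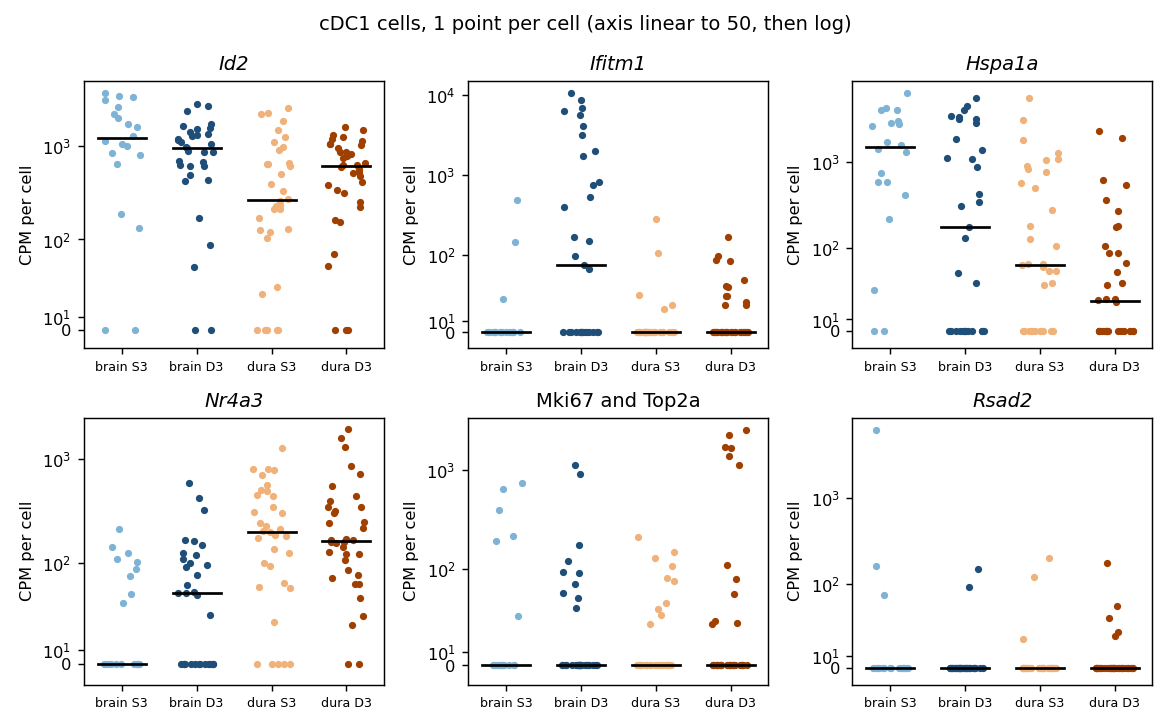
Level per cell (vertical axis, CPM, linear to 50 and logarithmic above) of Id2, Ifitm1, Hspa1a, Nr4a3, Mki67 and Top2a together, and Rsad2 in the 123 cDC1, 1 point per cell by library, with the median as a bar. Ifitm1 is high in part of the cells of brain D3 only, Hspa1a is highest in brain S3, Nr4a3 is higher in both dura mater libraries, and a single brain S3 cell is high in Rsad2.

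Between members, with every cell thinned to 2000 UMIs, the genes of the largest variance over mean of 2260 were S100a9, S100a8, Ifitm1, Apoe, Cst3, Malat1, Ctsd, Lyz2, Actb and Ifitm3. Before thinning, S100a9 had a median of 2 UMIs and a highest of 2750, Apoe a median of 4 and a highest of 888, and Ifitm1 a median of 0 and a highest of 184. Cst3 was found in every member and ranged from 13 to 1264 UMIs around a median of 494. At 2000 UMIs per cell, Xcr1 was found in 29.3% and Clec9a in 30.9% of members (74.8% and 95.1% before thinning), Wdfy4 in 61.0% of cDC1 and 17.0% of cDC2, Id2 in 61.0% and 30.5%, and Itgae in 23.6% and 0.190%. Wdfy4, Id2 and Itgae were thus found in a larger share of cDC1 than of cDC2 at equal depth.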

How the data were processed

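The CD45+ cells of 4 libraries (10X Chromium 3' v3) were processed by the authors with Cell Ranger 3.1.0 on mm10 and with Seurat 3.1.0. Each deposited value is on a natural log scale: a gene's UMIs in a cell were scaled to 10000 UMIs, and the log was taken of that plus 1. Only genes found in at least 3 cells are listed. Whole UMIs were recovered from these natural log values for 100% of the deposited entries, within a tolerance of 1e-06. Cells were kept with more than 1000 genes and no more than 7% of UMIs from mitochondrial genes. Libraries held 49003977 to 115154317 UMIs. The members and all gene lists were chosen with earlier results of these data known.

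UMIs of the members were summed by library. Genes with at least 30 UMIs over a pair of libraries were compared by the log2 ratio of CPM with a pseudocount of 0.5 UMIs, and given an exact 95% interval from the binomial distribution of the counts conditional on their sum. cDC1 and cDC2 were compared with voom and limma 3.58.1 in R 4.3.3, with the library as a block, for genes with at least 100 UMIs, calling an adjusted p under 0.05 and at least 2-fold. As the 4 sums of each type come from 4 different conditions, the p-values measure the spread of the difference over these libraries. Other steps used Python 3.11.15, numpy 2.4.6, scipy 1.17.1, pandas 2.3.3 and scanpy 1.11.5. Both kinds of script were tested on simulated data.

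Genes named between 2 libraries were the 10 per direction with the largest ratio among those past 2-fold with at least 50 UMIs, in at least 10% of the cells of the higher library, with no cell over 20% of its UMIs, and at 3 or more times the lower level of T and B cells. Genes named between cDC1 and cDC2 were the 15 per direction with the largest ratio, the same sign in all 4 libraries and at least 50 CPM. Sex-linked markers and mitochondrial, ribosomal and Gm genes were left out of both. Listed genes were named by role. Doublets were marked with Scrublet at 0.8% of barcodes for each 1000, since its automatic threshold marked at most 0.0634%, and were removed as an alternative. Further alternatives changed the rule for members, the filters, the pseudocount and the scaling. A few items are not reported here.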

Additional observations from a re-analysis of the deposited data

Results flagged for a closer look

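The plasmacytoid markers had median log2 ratios of D3 over S3 of 1.57 in brain, where 5 of 5 genes lay above 0, and of -0.73 in dura mater, where 11 of 11 lay below 0. The difference between the tissues was not tested, and 6 of the 17 members with few cDC1 markers carried at least 10 UMIs of Siglech and Ccr9. The neutrophil markers had medians of 4.42 in brain and -4.90 in dura mater, again an untested difference, and 5 members held over 1% neutrophil UMIs. Acss1, an acetyl-CoA synthetase, was lower at D3 in brain (-1.78) and higher in dura mater (1.32), and Ahnak, a large scaffold protein, was lower in brain (-1.22) and higher in dura mater (0.62), both with intervals apart from 0 and untested differences. Outside the comparisons, 98 cells met every condition for cDC1 but the limit on C1qa.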

How the results depend on the processing

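The shares of cDC1 depended on the limit on C1qa. With C1qa at 0, cDC1 were 0.627% and 0.594% of CD45+ cells in dura mater S3 and D3 and 0.333% in brain D3. Dura mater S3 and not D3 then had the highest share of CD45+ cells. This limit was set for cDC1 only. Beside cDC2 still chosen with C1qa below 1.5, those cDC1 made 16.8% of cDC1 and cDC2 in dura mater D3 and 8.33% in brain D3. These shares thus compare the cell types at unlike limits. With no limit cDC1 were 0.989% and 1.29% of CD45+ cells in brain S3 and D3, and 1.36% and 2.34% in dura mater S3 and D3. With both Xcr1 and Clec9a required, brain D3 had 0.372% of CD45+ cells, 9.22% of cDC1 and cDC2, and a median of 0.27 for interferon-stimulated genes over brain S3. Thinning to 2000 UMIs gave 6.92% and 10.1% of cDC1 and cDC2 in brain S3 and D3, and 10.6% and 19.6% in dura mater S3 and D3.

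Counts of genes past 2-fold moved with the minimum of UMIs, as fewer or more genes were compared. In the order brain D3 over S3, dura mater D3 over S3, dura mater over brain at S3 and at D3, at least 100 UMIs gave 30, 22, 52 and 59 higher and 23, 38, 30 and 52 lower. A minimum of 10 UMIs gave 565, 465, 697 and 691 higher and 503, 478, 437 and 548 lower, and a pseudocount of 5 UMIs gave 77, 81, 109 and 114 higher. Leaving out cells with a UMI of Mki67 or Top2a gave 108 higher in brain D3 over S3 and 112 lower in dura mater over brain at D3, and cell cycle medians of -0.81 in dura mater D3 over S3, 0.45 in dura mater over brain at S3 and -0.75 at D3. Between cDC1 and cDC2, testing genes without a minimum gave 1170 higher, and leaving out each library in turn gave 283 to 349 higher and 360 to 455 lower.

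The medians of macrophage and neutrophil markers in dura mater over brain at D3, -1.55 and -2.85, reversed to 0.27 and 0.46 in cells under 6000 genes, to 0.20 and 0.51 without Scrublet doublets and to the same 0.20 and 0.51 without members over 1% neutrophil or mast cell UMIs. The first was 0.47 without cells with a Mki67 or Top2a UMI. Over all alternatives, the ratios of the 69 named genes stayed past 2-fold 795 times, fell below it 36 times and reversed 0 times. These genes had been named for passing 2-fold in the same cells. The minimums of 100 and 10 UMIs could not change a ratio, and gave 40 of 40 and 69 of 69 past 2-fold. Median ratio scaling shifted log2 ratios by at most 0.07, so these totals do not measure how firm the ratios are. Among the 106 members with at least 7 markers 7 fell below 2-fold, among them Atf3 (-0.87), Sema4a (-0.74), Asph (-0.72), Ifi211 (-0.85), Tgs1 (-0.84) and Wfdc17 (-0.96). No paired analysis was possible because, between conditions, each group has 1 library and all carry the same number, while the test of cDC1 against cDC2 had the library as a block.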
